A study of Mus musculus with 14 samples.

Results

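The comparison described here was between 4T1 cells carrying the short hairpin RNA sh74, which is directed against Cnot7, and 4T1 cells carrying a scrambled hairpin (shScramble). The members were chosen by the treatment label: 2 samples labelled with shRNA 74 and 3 samples labelled as the scrambled control, 5 of the 14 samples in the series. 4T1 is a tumorigenic, metastatic mammary carcinoma line from a BALB/c mouse. Per the study's methods, cells received the hairpins by lentivirus and were selected with puromycin, and both groups were grown in DMEM with fetal bovine serum and antibiotics. The remaining samples were 3 with a second Cnot7 hairpin (sh75), 3 with CNOT7 over-expression and 3 with their control. They entered the estimate of the spread. Only sh75 is compared here, apart from list means of the over-expression samples and their control for hypoxia and interferon genes. The series describes 3 biological replicates per hairpin, but 2 samples carry the sh74 label, and nothing states whether replicates were separate infections or cultures, so the tests take in only the variation seen among these arrays, which may be technical.

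Cnot7 encodes a deadenylase of the CCR4-NOT complex, which shortens the poly(A) tails of mRNAs and so starts their decay. RNA-binding proteins, adaptors of the Tob and Btg families and the microRNA machinery bring the complex to its transcripts. A short hairpin RNA is cut by Dicer into a small duplex, and 1 strand, the guide, is loaded on an Argonaute protein and directs the loss of transcripts that it pairs with. The seed of a guide, bases 2 to 8, can also pair with unintended transcripts, which is why a second hairpin of different sequence is a common control.

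The 21-base guides of the 2 Cnot7 hairpins are shown 5′ to 3′ because the results turn on where the hairpins differ. Capitals mark bases 2 to 8.
sh74: tAAGTACTgcagaatagaagg
sh75: aACAAGTCtacattacaccgc
The seeds differ, and 0 of 1674 distinct mature mouse microRNA sequences in the RefSeq table (GRCm38.p6) share bases 2 to 7 with either guide. The position of the sh74 target in the Cnot7 transcript was not analysed here.

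RNA was measured on Affymetrix GeneChip Mouse Gene ST arrays. Values are RMA log2 intensities, on which a difference of 1 is a 2-fold difference. Sample values are given in the order sh74 replicate 1 and replicate 2, then shScramble replicates 1, 2 and 3. Array medians of the 14 samples lay between 6.31 and 6.38. Olfactory receptor genes, which mammary cells should not express, had array medians of 3.92 to 3.98 and mark the background. Of the epithelial markers of 4T1 cells, Krt8 (11.68 and 11.87 with sh74, 11.73 to 11.82 with shScramble) and Krt18 were high in all 5 samples, while Epcam, Cldn7 and Esrp1 were not, as given below. The mean level of 16 immune markers was 4.96 to 5.04 with sh74 and 4.95 to 5.05 with shScramble. That of 10 endothelial markers was 5.45 to 5.47 against 5.35 to 5.45, and that of 13 fibroblast and adipocyte markers at most 5.32 against 5.21 to 5.24. The leukocyte antigen gene Ptprc, the endothelial genes Pecam1 and Cdh5 and the stromal gene Dcn were at most 5.27 in all 5 samples.

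The 2 sh74 samples stood apart from each other in epithelial state. The mean of a mesenchymal gene list minus that of an epithelial list, after centering each gene, was 1.08 in sh74 replicate 1 and -0.86 in replicate 2, and -0.59, -0.77 and 0.53 in the shScramble samples. Of 19938 genes, 603 differed at least 2-fold between the 2 sh74 samples, against 114 to 498 in the other 12 pairs of samples of 1 group. Each sh74 sample is therefore shown separately.

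Cnot7, the targeted gene, lay lower in both sh74 samples than in any shScramble sample. It was 8.71 and 9.33 with sh74 and 10.44, 10.33 and 10.20 with shScramble. Relative to the shScramble mean, replicate 1 was lower by 1.62 and replicate 2 by 0.995 on the log2 scale. The groups did not overlap, but the 2 sh74 samples differed by more than the 3 shScramble samples did. The difference of means was -1.31 (95% interval -1.94 to -0.68), which leaves 40.4% of the transcript. For this gene alone limma gave an unadjusted p of 8.0e-04. The difference did not pass the limma test over all probe sets (adjusted p = 0.279). The exact permutation test over the 5 samples gave p = 0.1, the smallest this design allows. The sh75 samples, at 7.52, 8.51 and 8.07, lay lower still, and the difference between the hairpins was 0.98 (SE 0.29, adjusted p = 0.279).

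Other genes of the CCR4-NOT machinery differed little. Of 24 measured subunits, partners and other deadenylases, Cnot7 was the only one beyond 2-fold, 0 passed the test and the list median was -0.05, beside 0.00 over all genes. At an unadjusted p under 0.05, 3 were lower and 1 higher. Over all genes, 3.54% were lower and 3.68% higher at this p. Angel2, a paralog of the CCR4-type deadenylases, was 7.96 and 8.35 with sh74 and 8.62, 8.69 and 8.92 with shScramble (change -0.59, SE 0.14). Tob1, an adaptor that links CNOT7 to RNA-binding proteins, was 8.79 and 9.33 against 9.75, 9.81 and 9.33 (change -0.57, SE 0.20), so its replicate 2 was level with the lowest shScramble sample. Cnot2, a subunit of the complex's core, was 9.73 and 9.75 against 9.59, 9.63 and 9.28 (change 0.24, SE 0.09).

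The test called 2 of 21789 probe sets at an adjusted p under 0.05, 1 higher (0.00459% of those tested) and 1 lower (0.00459%). Leaving out sh74 replicate 1 left 1 call and leaving out replicate 2 gave 122, both of these among them. Both differed alike in the 2 sh74 samples. Chordc1, a co-chaperone gene of the HSP90 system, was 8.61 and 8.80 with sh74 and 10.35, 10.18 and 10.08 with shScramble, and fell by 1.497 (SE 0.11, adjusted p = 4.1e-04) to 35.4% of the control level. Gpr137b, which encodes a multi-pass membrane protein of the lysosome, was 9.56 and 9.62 with sh74 and 8.57, 8.80 and 8.32 with shScramble, and rose by 1.03 (SE 0.12, adjusted p = 0.0229), or 2.04-fold. In both genes the groups did not overlap.

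The pseudogene Gpr137b-ps was 10.55 and 10.64 with sh74 and 9.92, 10.17 and 9.80 with shScramble (change 0.63, SE 0.11, adjusted p = 0.125). A pseudogene resembles its parent gene in sequence, so the probes of the pair may share signal and the values are uncertain as separate measurements. The Chordc1 call was lost where the 5 samples were tested alone, by limma or by the methods' t-test. The Gpr137b call was lost there and in the fit of hairpin samples only (adjusted p = 0.230), with a variance trend (0.0622), without sh74 replicate 1 (0.147) and without shScramble replicate 1 (0.104).

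**Figure D1:**
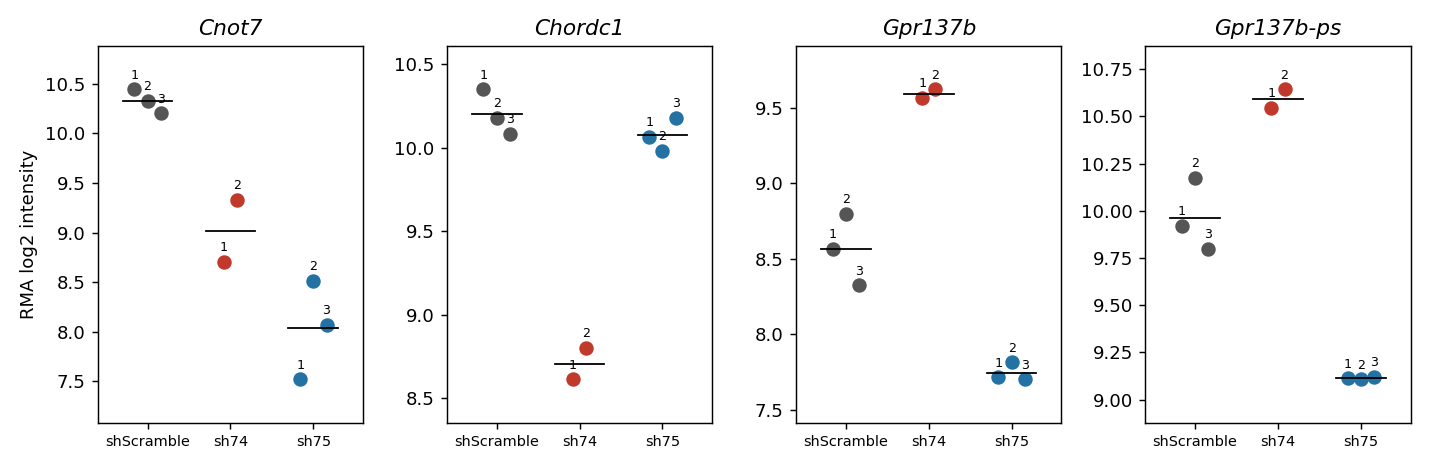
RMA log2 intensity (y axis) of Cnot7, the 2 called genes and the Gpr137b pseudogene in each shScramble, sh74 and sh75 sample, with points numbered by replicate and black lines at group means. The sh74 samples are apart from the shScramble samples in all 4 panels, Chordc1 with sh75 (9.98 to 10.18) overlaps shScramble, and Gpr137b with sh75 (7.70 to 7.82) lies on the other side of it.

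The second hairpin shows whether these differences were shared by another guide against Cnot7, so sh74 was tested directly against sh75. Chordc1 with sh75 was 10.06, 9.98 and 10.18, inside the shScramble range, and 1.37 higher than with sh74 (SE 0.11, adjusted p = 3.6e-04). Gpr137b with sh75 was 7.72, 7.82 and 7.70, below every shScramble sample (change from shScramble -0.82, adjusted p = 0.0164). Its level with sh74 was 1.85 above that with sh75 (SE 0.12, adjusted p = 1.1e-04). The pseudogene lay at 9.11, 9.11 and 9.12 with sh75, a distance of 1.48 from sh74 (SE 0.11, adjusted p = 2.9e-04). Cnot7 was thus below shScramble with either hairpin, whereas Gpr137b was above it with sh74 and below it with sh75.

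Between the hairpins, 38 probe sets passed the test: 24 were higher with sh74 (0.110% of those tested) and 14 lower (0.0643%). The count was 15 without sh74 replicate 1, and 19, 18 and 14 without sh75 replicates 1, 2 and 3. After those already given, the smallest p-values among genes with a regular symbol belonged to Tmem170b, to Arl15, which encodes a small GTPase, to Dennd10, to Kat2b, which encodes a histone acetyltransferase, to Eogt, which encodes a glycosyltransferase, to Naa60 and to Rbm41, a putative RNA-binding protein gene. Tmem170b was 8.62 and 8.43 with sh74, 6.91, 6.63 and 6.81 with sh75, and 8.12, 8.21 and 8.28 with shScramble. Arl15 was 8.09 and 7.78 with sh74, 5.81, 6.30 and 6.27 with sh75, and 7.48, 7.71 and 7.70 with shScramble. For these 2 genes the sh75 samples were the farther ones from shScramble. In 31 of the 38 both sh74 samples lay apart from the shScramble samples, in 29 the sh75 samples did, and in 21 the hairpins lay on opposite sides. These 38 were chosen for a difference between the hairpins, so the counts only describe them. Among all 21789 probe sets tested, 4800 had no overlap between sh74 and shScramble. The same was not counted for sh75 or for opposite sides. Naa60, by contrast, was 8.94 and 9.01 with sh74, 9.74, 9.70 and 9.77 with sh75, and 9.57, 9.82 and 9.78 with shScramble, so there the sh74 samples were the ones apart (hairpin difference -0.76, SE 0.10, adjusted p = 0.0137).

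Below the called genes, the 10 genes with the smallest p on each side, among those without overlap and with a higher group mean of at least 6, had adjusted p-values from 0.0534 to 0.179. On the lower side, Naa60, which encodes an N-terminal acetyltransferase of the Golgi, had a change of -0.75 (SE 0.10), at 8.94 and 9.01 against 9.57, 9.82 and 9.78. Ttll12, of the tubulin tyrosine ligase-like family, was 8.96 and 9.21 against 10.12, 9.86 and 9.90. Uhmk1, a kinase gene whose product phosphorylates splicing factors, was 9.07 and 9.26 against 9.97, 10.11 and 9.99. In each of these the gap between the nearest samples of the groups was wider than the distance between the 2 sh74 samples. With sh75 the change from shScramble was -0.56 in Uhmk1, -0.22 in Ttll12 and 0.01 in Naa60, and none passed the test.

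Next on the lower side, Ppp2r1b, the scaffold subunit of protein phosphatase 2A, was 8.90 and 8.91 against 9.67, 9.55 and 9.44. Psmb3, a subunit of the proteasome core, was 9.96 and 9.88 against 10.39, 10.52 and 10.43, and its second probe set differed by -0.45 (main probe set -0.53). Dcaf12, a substrate receptor of a cullin ubiquitin ligase, was 9.03 and 9.18 against 9.79, 9.63 and 9.61. In each of these 3 genes the sh74 samples were closer to each other than to any shScramble sample. Eps15, an endocytosis adaptor (change -0.51), Tmed9, a cargo receptor of the early secretory pathway (-1.09), and Tmem120b (-0.77) completed the list. Tmed9 was the least even of them, at 7.89 and 7.35 with sh74 against 8.93, 8.68 and 8.53. With sh75 the changes of the genes in this paragraph lay between -0.05 (Psmb3) and 0.10 (Tmed9).

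On the higher side, Dnase2b, an acid endonuclease gene, was 6.68 and 5.95 against 5.31, 5.30 and 5.16 (change 1.06, SE 0.16, adjusted p = 0.108). Rfk, riboflavin kinase, was 10.54 and 10.58 against 9.96, 9.70 and 9.66. Plcl1, a phospholipase C-like protein without catalytic activity, was 6.49 and 6.47 against 5.98, 5.89 and 5.85. Dnase2b was higher in replicate 1 than in replicate 2, while Rfk and Plcl1 were nearly equal in the 2 samples. Erc1 (0.69), the mitochondrial dicarboxylate carrier gene Slc25a10 (0.63), Map2k4, a kinase upstream of JNK (0.52), Scara5 (1.75) and Itga1 (3.15) made up the rest, with Gpr137b and its pseudogene. The 3 probe sets of Erc1 all lay higher, by 0.33 to 0.69. With sh75 the change from shScramble was 0.53 in Map2k4, 0.47 in Slc25a10, 1.17 in Scara5 and 2.17 in Itga1. It was 0.24 in Rfk, 0.19 in Erc1, 0.08 in Plcl1 and 0.05 in Dnase2b. None of these changes passed the test for sh75.

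Some genes had a wide gap between the groups but a large spread elsewhere, so the test did not call them. Itga1, the alpha-1 subunit of a collagen receptor, was 10.19 and 9.43 with sh74 and 7.55, 6.82 and 5.61 with shScramble (change 3.15, SE 0.59, adjusted p = 0.179). It was also above shScramble with sh75, at 9.01, 9.25 and 8.23, with a difference between hairpins of 0.98 (SE 0.59, adjusted p = 0.700). Ngfr, the low-affinity neurotrophin receptor, was 9.82 and 10.06 against 8.22, 8.22 and 7.84 (change 1.85, SE 0.45). In both genes even the lower sh74 sample was more than 2-fold above the highest shScramble sample.

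Scara5, a scavenger receptor that takes up ferritin, was 8.75 and 7.45 against 6.31, 6.19 and 6.53. Sfrp1, a secreted Wnt antagonist, was 9.86 and 10.08 against 8.30, 5.38 and 9.08, with a change of 2.39 (SE 1.55) and of 1.28 without shScramble replicate 2, the low sample. Robo1, a Slit receptor, was 7.48 and 7.28 against 6.57, 6.24 and 6.44, and Glipr1 differed by 1.35 (SE 0.57). In Robo1 and Scara5 the groups were apart and the shScramble samples close together.

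On the lower side, the widest gaps after Chordc1 were in Purb, Adamts1 and Cnot7 itself. Purb, a protein that binds purine-rich single strands, was 9.46 and 9.06 against 10.46, 10.70 and 10.63 (change -1.34, SE 0.26). Its second probe set differed by -0.78. With sh75 the change of the main probe set from shScramble was -0.78 as well (limma adjusted p = 0.391). Adamts1, a secreted metalloproteinase, was 6.37 and 6.64 against 9.69, 7.75 and 7.58. Ak4, a mitochondrial adenylate kinase, was 6.96 and 6.999 against 8.21, 8.15 and 7.87, with -0.34 at a second probe set. Of these 3 genes, Ak4 had the closest sh74 samples, and Adamts1 was far higher in 1 shScramble sample than in the other two. Pop1, a subunit of ribonuclease P (-0.98), the kinase gene Stk10 (-1.02) and the pyridoxal phosphatase gene Pdxp (-0.999) had close sh74 samples with all shScramble samples above them. None of these passed, with adjusted p-values from 0.199 for Purb to 0.647 for Adamts1.

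**Figure D2:**
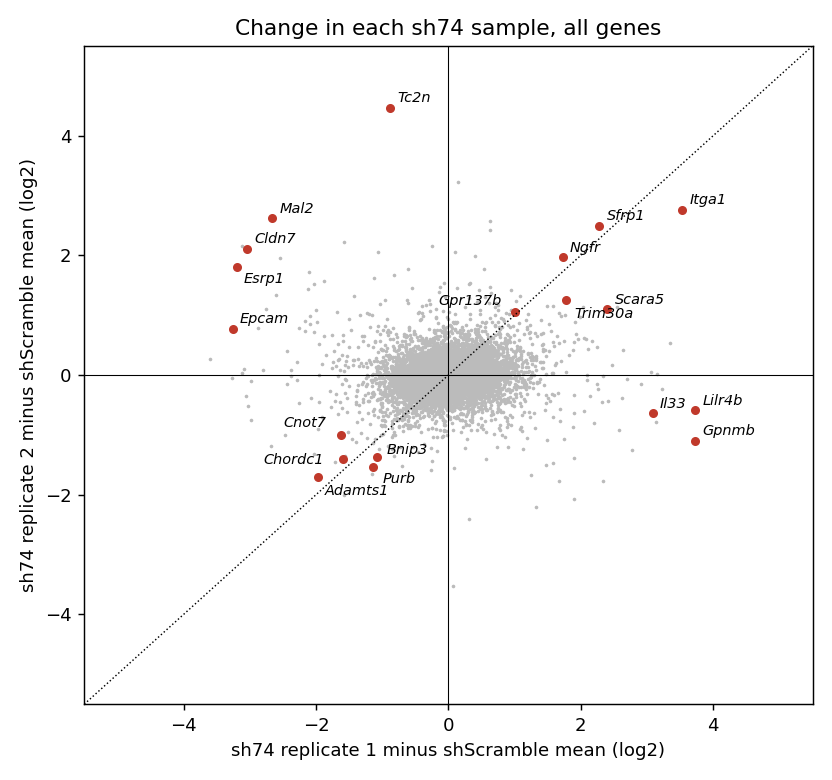
Difference from the shScramble mean on the log2 scale in sh74 replicate 1 (x axis) and replicate 2 (y axis) for 19938 genes, 1 grey point each, with the dotted line where the 2 samples are equal and named genes in red. Genes near the dotted line (Chordc1, Gpr137b, Itga1, Ngfr) differed alike in both samples, whereas Esrp1, Cldn7, Mal2, Gpnmb and Il33 lie in the corners where the samples go opposite ways.

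Most large differences were seen in 1 sh74 sample only. Relative to the shScramble mean, 474 genes differed at least 2-fold in replicate 1 and 152 in replicate 2. Of these, 34 differed at least 2-fold the same way in both samples, 15 higher and 19 lower, and 34 differed at least 2-fold in opposite ways.

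The genes that differed most between the 2 sh74 samples included genes of epithelial cells. Esrp1, an epithelial splicing regulator, was 5.65 and 10.65 with sh74 and 10.76, 10.56 and 5.21 with shScramble. Cldn7, a tight junction claudin, was 5.78 and 10.92 against 10.08, 10.52 and 5.83. Epcam, an epithelial adhesion protein, was 5.98 and 10.01 against 9.64, 9.65 and 8.41. In Esrp1 and Cldn7, sh74 replicate 1 sat beside shScramble replicate 3 and sh74 replicate 2 beside shScramble replicates 1 and 2.

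Mal2, a transcytosis protein of polarized cells (5.31 and 10.59), Rab25, an epithelial Rab GTPase (6.03 and 9.96), Tc2n (4.73 and 10.08), the adhesion receptor Adgre5 (4.69 and 9.96) and the carbonic anhydrase Car9 (5.17 and 9.67) were high in sh74 replicate 2. High in replicate 1 were Gpnmb, a transmembrane glycoprotein (10.39 and 5.57), Lilr4b, an immunoglobulin-like receptor (11.20 and 6.89), the myelin protein gene Pmp22 (10.60 and 6.50) and the secreted hormone gene Stc1 (10.49 and 6.47). B4galt6 (9.08 and 5.11), the lysyl oxidase-like gene Loxl3 (10.17 and 6.26), the cytokine gene Il33 (8.28 and 4.55) and Car5b (9.49 and 5.90) were also high there. None of these 16 passed the test between the groups. Vim, the mesenchymal filament gene, was 13.06 and 10.08 against 11.67, 10.28 and 12.81. The mesenchymal list as a whole moved little, with medians of 0.03 in replicate 1 and -0.06 in replicate 2. Of its 37 measured genes, 22 were above the shScramble mean in replicate 1 and 15 in replicate 2. In such bulk samples, fewer epithelial cells and less of each transcript per cell cannot be told apart.

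**Figure D3:**
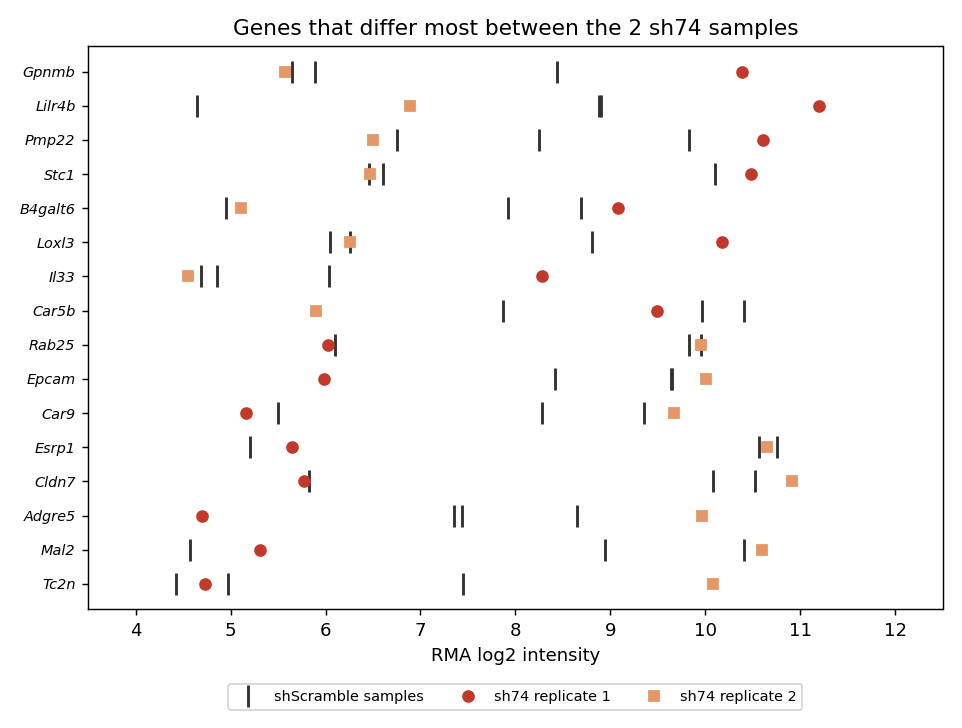
RMA log2 intensity (x axis) of the 16 genes with the largest difference between the 2 sh74 samples, with circles for replicate 1, squares for replicate 2 and vertical ticks for the 3 shScramble samples. For Esrp1, Cldn7, Mal2 and Rab25 the shScramble ticks themselves fall into a high and a low position, and the 2 sh74 samples lie close to the opposite positions.

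Gene lists were read in each sh74 sample for the same reason. In the cholesterol synthesis list, 18 of 20 genes had a lower mean with sh74, with a median of -0.45, but the median was -0.73 in replicate 1 and 0.14 in replicate 2. Hsd17b7, a sterol reductase gene, was 8.29 and 9.45 against 9.89, 9.78 and 9.81, and Mvd, mevalonate diphosphate decarboxylase, 7.54 and 9.002 against 9.45, 9.12 and 8.87. These genes were low in replicate 1, the sh74 sample with the higher mesenchymal score. In shScramble replicate 3, with a score of 0.53, the list mean was 0.01 from the shScramble mean, beside 0.02 and -0.02 in replicates 1 and 2. The sh75 samples, with scores of -0.41, 0.72 and 0.65, had list means of 0.07, -0.42 and -0.81. A link between the score and this list was not tested.

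Other lists split between the samples too. Small nucleolar RNAs (51 genes) had a median of -0.76 in replicate 1 and 0.08 in replicate 2, and epithelial genes (45) of -0.73 and 0.19. Mitochondrial ribosome and import genes (54) had -0.37 and -0.01, and lysosome and autophagy genes (47) 0.37 and -0.10. Over all genes the medians were 0.00 and 0.01. With the mesenchymal minus epithelial score as a covariate, the group medians were -0.26 for cholesterol synthesis and -0.27 for small nucleolar RNAs. They were -0.17 for mitochondrial genes and 0.06 for lysosome genes. Epithelial genes had -0.08, but the score is built from that same list, so a value nearer 0 was partly fixed in advance.

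**Figure D4:**
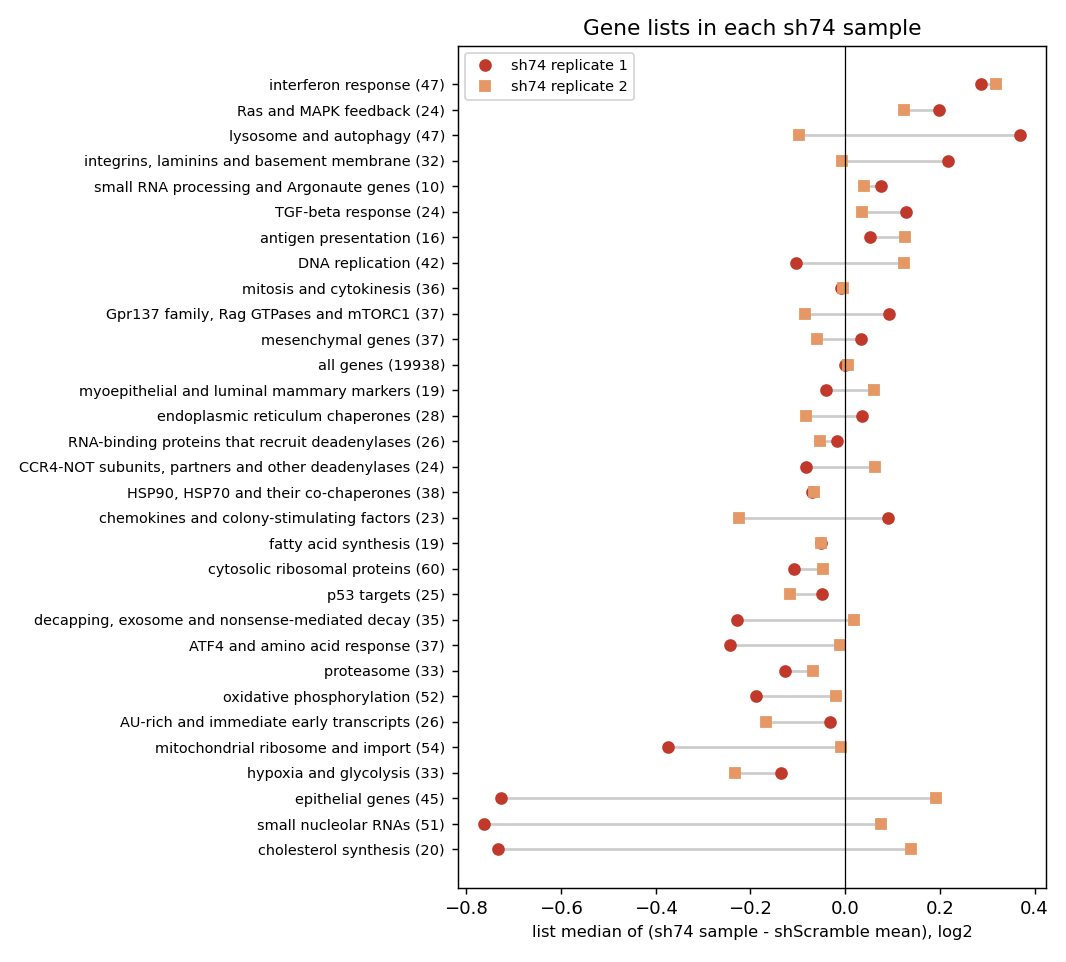
Median over the members of each gene list (number measured in parentheses) of the log2 difference from the shScramble mean, circles for sh74 replicate 1 and squares for replicate 2, ordered by the difference between group means. Cholesterol synthesis, small nucleolar RNA and epithelial lists lie below -0.7 in replicate 1 and above 0 in replicate 2, while hypoxia and glycolysis genes are below 0 and interferon response genes above 0 in both.

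Hypoxia and glycolysis genes lay lower in both sh74 samples, with medians of -0.13 in replicate 1 and -0.23 in replicate 2 and a group median of -0.27 (-0.22 with the score as covariate). Of 33 measured genes, 27 had a lower mean, 20 were below the shScramble mean in both samples, and in 10 (30.3%) both sh74 samples were below every shScramble sample. Over all genes, 10.5% were lower without overlap. At an unadjusted p under 0.05, 10 were lower (30.3%, beside 3.54% of all genes) and 0 higher, and 0 passed after adjustment. The list also had a negative median with sh75 (-0.09) against the same shScramble samples. As a mean difference from shScramble, the list was at -0.43 and -0.21 in the sh74 samples. It was at -0.10, 0.61 and 0.09 in the controls of CNOT7 over-expression and at -0.007, -0.005 and -0.03 with over-expression. The list thus varied more within that control group than the sh74 samples differed from shScramble. The genes of this list encode enzymes that turn glucose into lactate and proteins induced when oxygen is low.

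Bnip3, a mitophagy receptor induced by hypoxia, was 8.18 and 7.89 with sh74 and 9.13, 8.96 and 9.68 with shScramble (change -1.22, SE 0.28), and its second probe set differed by -0.997. Pfkl, the liver-type phosphofructokinase, was 9.95 and 10.04 against 10.27, 10.37 and 10.31. Aldoa, an aldolase, was 11.96 and 11.66 against 12.14, 12.13 and 12.21. Each was lower in both samples, and the change was -0.32 for Pfkl and -0.35 for Aldoa. Ldha, lactate dehydrogenase A, was 12.53 and 12.62 against 12.83, 12.68 and 12.83. Further members, named after their values were seen, were Ndrg1 (10.11 and 10.01 against 10.91, 10.76 and 10.90), Aldoc (6.38 and 5.96 against 7.85, 7.10 and 8.92), Pgk1 (-0.27), Tpi1 (-0.17) and Pgam1 (-0.27). Car12 lay lower too (-1.77) but unevenly, at 5.95 and 8.45 against 9.15, 8.95 and 8.80. Car9, given above among the genes that differed most between the sh74 samples, is also a member of this list. Other hypoxia genes, also chosen after their values were seen, overlapped between the groups, among them Vegfa (8.74 and 8.34 against 8.71, 8.53 and 9.32), Slc2a1 (11.01 and 11.03 against 10.90, 11.12 and 11.24) and Hk2 (9.93 and 10.10 against 9.58, 10.08 and 8.89).

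Hypoxia-inducible factors bind DNA at sites with the core ACGTG, so the promoters of the list were searched for these letters on both strands, in windows of 300 bases that end just past each start (RefSeq, GRCm38.p6). Of 30 genes with a promoter entry, 23 (76.7%) held the letters, beside 21.8% of all 27025 genes. Bnip3, Ldha and Pgk1 are shown as examples of lower members, with ACGTG or its reverse complement in capitals, for 60 bases ending before the start.
Bnip3, chr7:138909582-138909641, minus strand: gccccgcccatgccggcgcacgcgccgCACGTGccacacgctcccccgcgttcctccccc
Ldha, chr7:46845742-46845801, plus strand: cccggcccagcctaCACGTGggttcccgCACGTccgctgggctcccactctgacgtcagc
Pgk1, chrX:106186941-106187000, plus strand: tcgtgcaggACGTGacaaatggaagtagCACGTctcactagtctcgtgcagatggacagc
Within the list the letters did not mark the lower genes: the median change was -0.27 in the 23 genes with them, 19 of them lower, and -0.32 in the 7 without, all 7 lower.

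Interferon response genes leaned higher in both samples, with medians of 0.29 and 0.32 and a group median of 0.32 (0.34 with the score as covariate). Of 47 measured genes, 41 had a higher mean with sh74, 29 were above the shScramble mean in both samples, and in 18 (38.3%) the samples did not overlap, all of them higher. Over all genes, 11.4% were higher without overlap. At an unadjusted p under 0.05, 6 were higher (12.8%, beside 3.68% of all genes) and 0 lower, and 0 passed after adjustment. Interferons induce these antiviral genes through STAT and IRF factors.

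Irgm1, an interferon-inducible GTPase, was 8.02 and 8.12 with sh74 and 6.82, 7.23 and 7.51 with shScramble. Trim30a was 7.27 and 6.75 against 5.65, 5.48 and 5.35. Eif2ak2, the kinase PKR that senses double-stranded RNA, was 8.96 and 9.04 against 8.40, 8.75 and 8.63. Adar, which edits double-stranded RNA, was clearly apart in replicate 1 alone, at 9.11 and 8.68 against 8.52, 8.47 and 8.56. Parp14 (7.92 and 7.74 against 6.34, 7.09 and 6.73) and Samd9l (6.77 and 7.19 against 6.09, 6.12 and 5.88), named after their values were seen, were higher in both. Mx1, Mx2 and Iigp1, strongly interferon-induced genes chosen after their values were seen, lay near the background in both groups (3.70 to 4.45), and Rsad2 and Irf7 overlapped between the groups. The list also had a positive median with sh75 (0.14) against the same shScramble samples. As a mean difference from shScramble, the list was at 0.32 and 0.46 in the sh74 samples. It was at -0.18, 1.09 and -0.27 in the controls of CNOT7 over-expression and at -0.13, 0.16 and 0.25 with over-expression. The list thus varied more within the control group without a hairpin than the sh74 samples differed from shScramble.

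Sites for IRF-containing factors hold GAAA repeated after a gap of 2 bases. This form, on either strand of the same 300-base windows, was in 17 of 35 members with a promoter entry (48.6%) and in 3.99% of all genes. Irgm1 and Trim30a are shown as 2 of the members named above that hold it before the start, with the matches in capitals.
Irgm1, chr11:48871421-48871480, minus strand: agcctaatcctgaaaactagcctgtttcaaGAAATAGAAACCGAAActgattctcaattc
Trim30a, chr7:104465195-104465254, minus strand: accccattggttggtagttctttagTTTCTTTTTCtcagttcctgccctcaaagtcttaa
In Irgm1 the capitals hold 2 overlapping matches, and in Trim30a the match is on the opposite strand. Members with the form had a median change of 0.28 and members without it 0.35.

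**Figure D5:**
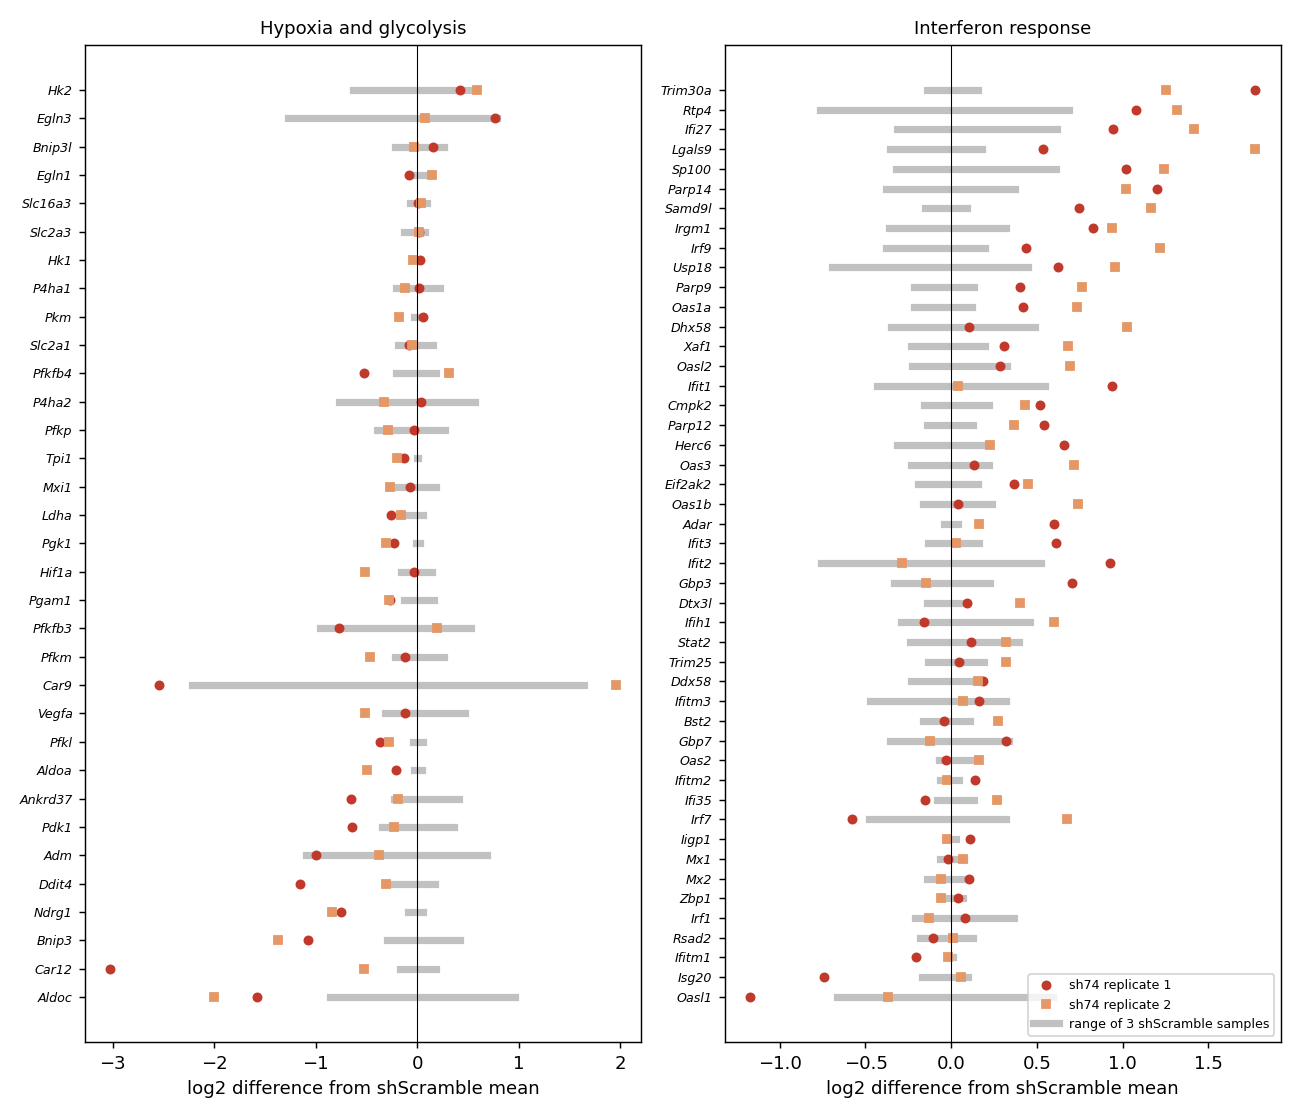
Log2 difference from the shScramble mean (x axis) of each measured hypoxia and glycolysis gene (left) and interferon response gene (right), circles for sh74 replicate 1, squares for replicate 2 and grey bars for the range of the 3 shScramble samples. Both sh74 marks lie left of the bar for 10 hypoxia and glycolysis genes and right of it for 18 interferon response genes.

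Proteasome subunits leaned lower by a small amount in both samples, with medians of -0.13 and -0.07. Of 33 subunits and related genes, 30 had a lower mean, 26 were below the shScramble mean in both samples and 14 (42.4%) were lower without overlap, beside 10.5% of all genes. At an unadjusted p under 0.05, 5 were lower (15.2%, beside 3.54%) and 0 higher. Psmb3 is given above, and Psmb5, a catalytic subunit of the core, was 9.07 and 9.02 against 9.45, 9.40 and 9.51. Psmd8, of the regulatory lid, was 9.92 and 10.12 against 10.61, 10.32 and 10.43. HSP90, HSP70 and co-chaperone genes, the list that holds Chordc1, had a median of -0.05, with 4 of 38 lower (10.5%, Chordc1 included, beside 3.54% of all genes) and 0 higher at that p. Beside Chordc1 these were Rpap3 (-0.30), Dnaja1 (-0.25) and Ruvbl2 (-0.41).

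Genes of small RNA processing are of interest because hairpins and microRNAs share the same enzymes. Of 10 measured genes, 4 had an unadjusted p under 0.05, 2 higher and 2 lower (20% each, beside 3.68% and 3.54% of all genes), and 0 passed after adjustment (adjusted p = 0.296 to 0.557). Dicer1, which cuts hairpins into duplexes, was 10.04 and 10.01 with sh74 and 9.49, 9.58 and 9.40 with shScramble. Ago1 was 9.21 and 9.02 against 8.55, 8.42 and 8.77. Both lay higher without overlap, by 0.54 and 0.53. Ago2, the Argonaute that slices target RNAs, was 10.34 and 10.42 against 10.95, 10.89 and 10.99. Tarbp2, a partner of Dicer, was 7.16 and 7.21 against 7.58, 7.52 and 7.60. The second probe sets of Ago2 (-0.44) and Tarbp2 (-0.35) lay lower as well. With sh75, Dicer1 lay between 9.18 and 9.69 and Ago2 between 11.01 and 11.09. The hairpins differed by 0.57 in Dicer1, 0.75 in Ago1, -0.68 in Ago2 and -0.53 in Tarbp2, with adjusted p-values from 0.128 to 0.207, so the test did not call these differences. Ago3, Ago4, Dgcr8, Drosha, Xpo5 and Prkra had changes between -0.03 and 0.17.

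Small shifts with many members apart were also seen in 2 lists whose medians were near 0. Cytosolic ribosomal protein genes had medians of -0.11 and -0.05 in the sh74 samples, 51 of 60 had a lower mean, and 21 (35%) were lower without overlap, beside 10.5% of all genes, with 3 lower (5%) at an unadjusted p under 0.05, beside 3.54%. Rps19, of the small subunit, was 9.41 and 9.35 against 9.93, 9.58 and 9.67. Of 28 endoplasmic reticulum chaperone and translocation genes, 9 (32.1%) were lower without overlap and 5 (17.9%) lower at that p, while 1 was higher and the list medians were 0.04 and -0.08. Sec61b, a subunit of the protein translocation channel, was 8.76 and 8.85 against 9.30, 9.08 and 9.04, and Sdf2l1, an endoplasmic reticulum stress gene, 7.395 and 7.43 against 7.84, 8.71 and 8.18. Ssr1, of the translocon-associated complex, lay on the other side, at 11.13 and 10.84 against 10.63, 10.61 and 10.75.

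The lists not described so far had group medians between -0.14 and 0.14, and Gpr137b was their only member that passed the test. Among RNA-binding proteins that recruit deadenylases, 2 of 26 had an unadjusted p under 0.05 (7.69% higher, beside 3.68% of all genes), both higher: Zfp36l2, which binds AU-rich elements, was 11.47 and 11.62 against 10.98, 11.01 and 10.97, and Tnrc6b, a GW182 protein that links Argonautes to CCR4-NOT, was 9.30 and 8.75 against 8.53, 8.57 and 8.62. Of 26 AU-rich and immediate early transcripts, Egr3 alone had such a p, a share (3.85%) near that of all genes, at 7.72 and 7.34 against 7.05, 6.97 and 7.23. Myc was 10.74 and 11.53 against 11.79, 11.88 and 11.45, so only replicate 1 was below all shScramble samples. Among 23 chemokines and colony-stimulating factors 2 were higher at that p (8.70%). Of these, Cx3cl1 was 9.48 and 9.42 against 8.77, 8.63 and 9.02, and Csf2 6.22 and 7.06 against 5.48, 5.97 and 5.31.

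Cell division genes showed no common direction. Mitosis and cytokinesis genes had a median of 0.04, although Mki67, the proliferation antigen, was 11.89 and 11.69 with sh74 against 11.31, 11.36 and 11.49 (change 0.41), and Aurka 9.62 and 9.76 against 9.94, 10.17 and 10.01. DNA replication genes had 0 of 42 at an unadjusted p under 0.05, with medians of -0.10 in sh74 replicate 1 (28 lower) and 0.12 in replicate 2 (34 higher). Among p53 targets, Rrm2b, a ribonucleotide reductase subunit, was 6.72 and 6.65 against 7.203, 7.25 and 7.30. Single members of other lists were likewise lower in both samples: Cyc1, cytochrome c1, was 8.66 and 9.08 against 9.75, 9.39 and 9.39, Timm22, of the mitochondrial inner membrane translocase, 7.19 and 7.05 against 7.49, 7.62 and 7.65, and Phgdh, of serine synthesis, 8.85 and 8.96 against 9.58, 9.35 and 9.53. Among integrins, Itgb5 was 9.51 and 9.51 against 10.22, 9.90 and 10.26, and Itgb4 9.91 and 9.62 against 9.11, 9.13 and 9.15. None of these single genes passed the test over all probe sets. They were named for a small p within their lists. At an unadjusted p under 0.05, 8% of 25 p53 targets and 7.69% of 52 oxidative phosphorylation genes were lower. So were 11.1% of 54 mitochondrial ribosome and import genes and 2.70% of 37 ATF4 and amino acid response genes. Of 32 integrin, laminin and basement membrane genes, 6.25% were lower and 6.25% higher, beside 3.54% and 3.68% of all genes.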

How the data were processed

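Values were the deposited series matrix of the authors, log2 intensities of Affymetrix Mouse Gene ST arrays, which the submitters' processing notes credit to RMA in oligo (versions not given in the sources used here). RMA background-corrects, quantile-normalizes and summarises probes, so absolute shifts in total RNA are not kept. Of 35556 probe sets, 21789 had exactly 1 gene symbol in the platform annotation (build not given in the sources used here) and were tested, covering 19938 genes. 13767 with no or several symbols were left out. limma 3.58.1 in R 4.3.3 was fitted to all 14 samples in 5 groups (9 residual degrees of freedom, 2.09 prior) without a term for the codes that end the sample titles, some of which recur in other groups and whose meaning is not given, with two-sided tests and Benjamini-Hochberg adjustment over all tested probe sets, called at an adjusted p under 0.05. A gene with several probe sets was counted once, by its probe set of highest mean. The number of arrays limits the precision. The scripts were tested on simulated data.

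Genes named were Cnot7 and all calls, the 10 smallest p and the 8 widest gaps in each direction among non-overlapping genes with a higher group mean of at least 6, the 8 largest differences each way between the sh74 samples, and up to 4 members with the smallest p per list. Exceptions are stated. Predicted genes, microRNAs, small nucleolar RNAs, olfactory receptors and histones were not named. The members and gene lists were chosen with earlier results of these data known. Alternatives were other sample sets, scalings, filters, variance priors, a score covariate, the methods' t-test and leaving out each sample. Guide sequences came from the study's supplement, microRNAs and promoters from RefSeq (GRCm38.p6).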

Additional observations from a re-analysis of the deposited data

Results flagged for a closer look

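The difference between the hairpins was itself tested with limma. Of the 167 genes named beside Cnot7 for the sh74 against shScramble comparison, 9 passed at an adjusted p under 0.05. Over all probe sets tested, 0.110% were called higher with sh74 and 0.0643% lower. The named genes were chosen by their p or gap between sh74 and shScramble, and this contrast uses the same sh74 samples. A larger share among them was therefore partly fixed in advance. Gpr137b was 1.85 higher with sh74 than with sh75, Gpr137b-ps 1.48 higher and Dnase2b 1.01 higher. Chordc1 had a difference of -1.37, Tmed9 of -1.19, Tmem120b of -0.82, Naa60 of -0.76, Ppp2r1b of -0.64 and Dcaf12 of -0.57. For Gpr137b and its pseudogene the samples of the hairpins lay on opposite sides of the shScramble samples.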

How the results depend on the processing

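The number of calls between sh74 and shScramble (2) was 1 among hairpin samples only and 4 after quantile normalization. It was 0 with the 5 samples alone (limma, 1347 at an unadjusted p under 0.05). An intensity trend and robust prior gave 1 call, and the mesenchymal minus epithelial score as covariate gave 8. The methods' t-test gave 0 (1224 at an unadjusted p under 0.05). Leaving out 1 sample gave 1 to 122 calls, with 1 without sh74 replicate 1 and 122 without sh74 replicate 2, both original calls among the 122. A sample left alone in its group was assumed to vary like the other groups. The cause of these differences was not tested. The Cnot7 change lay between -1.62 and -0.99 on leaving out a sample and between -1.31 and -1.25 otherwise, and its adjusted p never passed (0.0762 without sh74 replicate 2). Between sh74 and sh75 (38 calls) there were 14 among hairpin samples only and 72 with the covariate. Leaving out each sh74 or sh75 sample, an alternative chosen after seeing the data, gave 14 (without sh75 replicate 3) to 53 calls (without sh74 replicate 2), with 15 without sh74 replicate 1, 19 without sh75 replicate 1 and 18 without sh75 replicate 2. Of 2491 values for 167 named genes, 2463 kept direction and side of the threshold, 16 passed it newly, 8 lost it and 4 changed sign, all without sh74 replicate 1. Only 2 of the named genes were called in the main fit, so most values that kept their side stayed uncalled. The alternatives also share arrays with the main fit, so this agreement was largely fixed in advance and does not measure robustness. On leaving out a sample Orc2 ranged from -0.63 to 0.034, Lsr from -0.40 to 0.0052, Emcn from -0.029 to 0.16 and Retn from -0.15 to 0.0079. Of 442 list medians 57 moved, and 16 lists changed sign under some alternative. No paired analysis was possible because no code at the end of an sh74 title recurs in an shScramble title, and the meaning of these codes is not given.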
